A study of Arabidopsis thaliana with 17 samples.

Results

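The WRKY genes were followed through 24 h after cutting in hypocotyls of dark-grown Arabidopsis thaliana seedlings. The 58 members are the loci of a list of WRKY gene identifiers, taken by identifier, out of 28642 genes in the deposited table. The list was chosen with earlier results of these data known. Seedlings were grown in darkness on medium labelled MS-0, their etiolated hypocotyls received a sharp cut, and the material stayed in darkness on the same medium for 0, 1, 3, 6, 12 or 24 h before RNA was taken. The 17 mRNA libraries were made with a stranded kit, 3 per time point and 2 at 24 h. The labels give no genotype, accession or seedling age. They also do not say that libraries of 1 time point came from separate plants, so p-values may measure technical spread only. Every group was cut, and uncut controls for the later hours are not among the groups, so the hours after the cut and the hours on the plate cannot be told apart. Whole hypocotyl pieces were sequenced, so fewer cells of a type and less RNA per cell cannot be told apart either.

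WRKY proteins are plant transcription factors named for a conserved heptapeptide at the start of a zinc-binding domain that contacts DNA. They bind the W-box, a short element with the core TTGAC, and many WRKY genes carry W-boxes themselves and are controlled by other WRKY proteins. The family is sorted into group I, which has a pair of WRKY domains, group II with its branches IIa to IIe, and group III, whose zinc finger has a different spacing. Members are best known from immune responses, senescence, abiotic stress and wounding, in which kinase cascades and calcium signals act on both their genes and their proteins.

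The annotation placed all 58 members, and their coding sequences were read for the heptapeptide code. All 10 members of group I held 2 copies of it and each of the other 48 members held 1. WRKY45 was placed in IIc here and held 1 copy. The code of WRKY50 and WRKY51, both of IIc, is a variant form. The domain is shown for the 3 members of IIa, whose transcripts took different courses below, and for WRKY33 and WRKY51 as examples of the double and the variant form. Each line gives 63 bases of the coding strand (RefSeq, TAIR10.1), and capitals mark the heptapeptide code.
WRKY40: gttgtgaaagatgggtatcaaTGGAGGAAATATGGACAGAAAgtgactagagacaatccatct
WRKY18: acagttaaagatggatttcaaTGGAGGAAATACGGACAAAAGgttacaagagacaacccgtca
WRKY60: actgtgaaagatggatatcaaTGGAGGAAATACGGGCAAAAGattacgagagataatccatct
WRKY33 first copy: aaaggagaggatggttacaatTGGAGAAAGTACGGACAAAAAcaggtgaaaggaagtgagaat
WRKY33 second copy: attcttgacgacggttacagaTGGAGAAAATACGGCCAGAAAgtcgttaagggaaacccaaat
WRKY51: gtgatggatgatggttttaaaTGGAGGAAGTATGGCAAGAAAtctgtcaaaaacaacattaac

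W-boxes were searched in the 300 bases before each gene's annotated start, as TTGACC or TTGACT on either strand. At least 1 was present in 24 of 58 member windows (41.4%), and in 8855 of 27443 windows of protein-coding genes (32.3%). At least 2 were present in 10 member windows (17.2%), against 7.91% of protein-coding windows. By subgroup, III held a W-box in 5 of 9 windows, IId in 4 of 7, I in 5 of 10, IIc in 6 of 14, IIb in 3 of 8, IIe in 1 of 7 and IIa in 0 of 3. The windows with 3 W-boxes were those of WRKY33 and WRKY30. They are printed with the window of WRKY53, which holds 2, and that of WRKY40, which holds none and belongs to the member with the highest level in any library. The sequences read 5′ to 3′ along the gene up to the base before its start, with W-boxes in capitals in either orientation (TAIR10.1). A match is a match of letters only. The core TTGAC with another last letter, as tgtcaa on the other strand in the WRKY40 window, was not counted.
WRKY33, chr2:16107935-16108234, plus strand: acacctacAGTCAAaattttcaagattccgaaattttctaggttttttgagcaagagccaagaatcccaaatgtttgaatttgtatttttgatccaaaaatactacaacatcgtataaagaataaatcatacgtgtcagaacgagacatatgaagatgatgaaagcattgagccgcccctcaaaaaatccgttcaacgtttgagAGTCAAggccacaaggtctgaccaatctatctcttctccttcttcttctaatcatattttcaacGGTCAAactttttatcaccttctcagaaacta
WRKY30, chr5:8154711-8155010, minus strand: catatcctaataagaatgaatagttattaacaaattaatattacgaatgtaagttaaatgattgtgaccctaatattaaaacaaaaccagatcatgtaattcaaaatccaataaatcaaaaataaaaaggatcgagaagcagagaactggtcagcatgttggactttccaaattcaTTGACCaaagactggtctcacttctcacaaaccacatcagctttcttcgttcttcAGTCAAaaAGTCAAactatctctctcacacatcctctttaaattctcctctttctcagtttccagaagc
WRKY53, chr4:12393983-12394282, minus strand: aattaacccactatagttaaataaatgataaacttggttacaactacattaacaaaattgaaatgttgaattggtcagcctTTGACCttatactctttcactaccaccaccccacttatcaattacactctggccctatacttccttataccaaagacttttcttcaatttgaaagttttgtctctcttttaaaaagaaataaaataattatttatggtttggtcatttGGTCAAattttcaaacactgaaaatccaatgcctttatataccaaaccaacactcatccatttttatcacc
WRKY40, chr1:30383261-30383560, plus strand: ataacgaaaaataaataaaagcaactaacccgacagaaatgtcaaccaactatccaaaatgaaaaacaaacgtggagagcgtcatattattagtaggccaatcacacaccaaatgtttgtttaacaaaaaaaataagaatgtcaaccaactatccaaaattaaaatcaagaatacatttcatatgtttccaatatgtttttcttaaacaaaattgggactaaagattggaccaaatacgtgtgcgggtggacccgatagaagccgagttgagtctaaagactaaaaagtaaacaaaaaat

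Levels are given as RPKM, reads adjusted for gene length and library size, in the order of replicates 1 to 3. Changes are differences of mean log2(RPKM + 1) with their standard error (SE), later time minus 0 h, and understate the change of genes near 0. Log2 ratios between genes are likewise mean differences of log2(RPKM + 1), and understate the ratio where a gene is near 0. The 17 libraries held 7717255 to 20740957 mapped reads, with 0 h replicate 1 the deepest. Genes with at least 1 RPKM in at least 2 libraries were tested, 19656 in all and 52 of the members. Replicates of a time point correlated at 0.975 to 0.992 across tested genes. Library 12 h replicate 1 stood apart, with a summed level of 202 RPKM over 4 green-tissue markers against 18.2 in the lowest library of that time point, so 12 h counts that change without it are given both ways. The hypocotyl label was checked against markers of other organs. The 3 shoot-apex markers summed to 3.06 RPKM at most, the 4 root-hair markers to 1.32 and the 5 seed storage markers to 11.3, and WUS was at 0 in 16 of 17 libraries. The cambium marker PXY had 43.3 to 49.7 RPKM at 24 h, against 58.1 to 65.9 at 0 h, and lay between 6.65 and 9.44 at 1, 3 and 6 h. The 2 xylem markers summed to 61.9 to 71.7 RPKM at 24 h, against 181 to 189 at 0 h, and to between 142 and 207 at the times between, while the 2 phloem markers stayed between 44.6 and 75 throughout. The part of these tissues in the results was not tested.

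The 6 members outside the test stayed close to the limit of detection. WRKY42, WRKY12, WRKY43, WRKY35 and WRKY55 did not reach 1 RPKM in any library, and WRKY56 reached it in 1. The most reads any of them had in a library was 12, for WRKY56. WRKY55 had at most 3 reads and was at 0 in 11 libraries, although it lies beside WRKY54 on chromosome 2 with 919 bases between them. Change in these 6 members was not tested in the main fit. At 24 h both libraries of WRKY43 and of WRKY56 lay above their 0 h libraries, and those of WRKY42 lay below. All 12 h libraries of WRKY35 lay above those of 0 h. These positions rest on few reads.

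The summed level of the 58 members rose steeply within 1 h and then declined. It was 602 ± 19.7 RPKM at 0 h, 3608 ± 254 after 1 h, 2160.2 ± 101 after 3 h, 1584 ± 53.7 after 6 h and 976 ± 35.1 after 12 h (SD, n = 3 each), and 1016 ± 32.8 after 24 h (SD, n = 2). The peak was made largely by a few genes. WRKY40 gave 30.5% to 32.0% of the sum in the 1 h libraries and WRKY18 gave 24.1% to 25.5%. Among all genes of a library, WRKY40 ranked 42 to 63 at 1 h, against 11944 to 14965 at 0 h. Without WRKY40, WRKY18 and WRKY33 the sum peaked later, with 548 to 563 RPKM at 0 h, 1229 to 1288 after 1 h, 1459 to 1542 after 3 h, 1241 to 1314 after 6 h, 871 to 921 after 12 h and 914 to 954 after 24 h. The leading member differed between time points. WRKY39 had the highest mean at 0 h, WRKY40 after 1 h, WRKY33 after 3 h and 6 h, WRKY45 after 12 h and WRKY65 after 24 h.

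**Figure D1:**
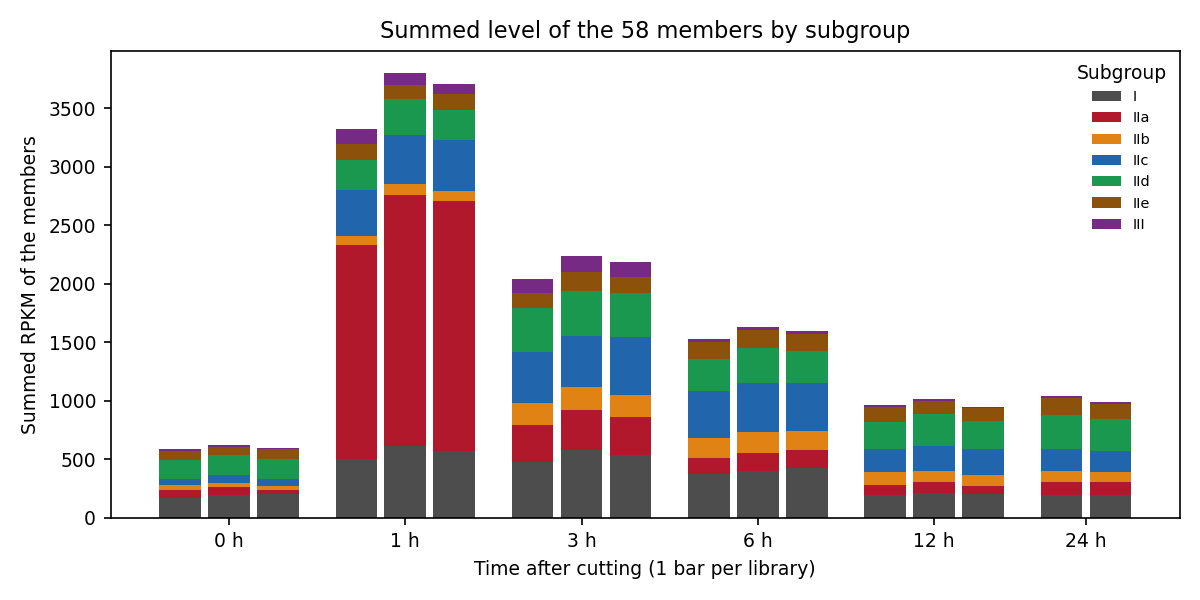
Summed RPKM of the 58 members in each of the 17 libraries (1 bar each, by time after cutting in h), stacked by subgroup. The 1 h bars stand at 3319 to 3800.0 RPKM and subgroup IIa fills 55.1% to 57.7% of them, whereas at 24 h IId is the largest block.

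More members were higher than lower at every time after cutting, whereas at 1, 3 and 6 h more of all tested genes were lower than higher. By limma with Benjamini-Hochberg adjustment over all tested genes, 26 of 52 were higher and 13 lower at 1 h than at 0 h, while 18.2% of all tested genes were higher and 54.7% lower. At 3 h 32 were higher and 9 lower (27.6% and 39.3% of tested genes), at 6 h 33 and 9 (30.2% and 37.1%), after 12 h 29 and 4 (34.4% and 27.8%), and after 24 h 28 and 4 (36.2% and 23.2%). Without 12 h replicate 1 the 12 h counts were 28 higher and 3 lower, and in IIc they were 9 and 0 in place of 8 and 0. The median change of the tested members was 0.54 at 1 h, 0.88 after 3 h, 0.65 after 6 h, 0.48 after 12 h and 0.64 after 24 h. Over all tested genes the medians were -0.36, -0.12, -0.07, 0.06 and 0.14 at these times. Centring each library on its median moved every change by 0.26 at 1 h and by between -0.11 and 0.09 at the other times, and the 1 h split was then 32 higher and 10 lower. No called member changed its sign under that scaling or under quantile normalization. All these comparisons share the same 0 h libraries.

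Large rises were most frequent in the first hours. A rise of at least 4-fold in RPKM + 1 was called for 16 members at 1 h (4.98% of tested genes), 14 after 3 h (4.86%), 11 after 6 h (4.26%), 4 after 12 h (2.26%) and 4 after 24 h (1.85%). WRKY28 and WRKY29 were among them at each of these times. At 12 h they were joined by WRKY31 and WRKY45, also without 12 h replicate 1, and at 24 h by WRKY31 and WRKY71. In RPKM + 1 no member was 4-fold lower at any time, as 0.824%, 3.06%, 3.68%, 1.8% and 1.98% of tested genes were at 1, 3, 6, 12 and 24 h. In mean RPKM some members with low levels fell further. WRKY74 stood at 0.204 of 0 h at 1 h and WRKY70 at 0.167 at 24 h. At 6 h WRKY41 stood at 0.217 and WRKY44 at 0.146. Among the 22 members with a 4-fold rise at some time, 0 h replicate 2 was the highest 0 h library for 15, against 8 of the 30 other tested members. Between neighbouring times, 22 members rose and 14 fell at 3 h against 1 h (38% and 22.2% of tested genes). At 6 h against 3 h 5 rose and 15 fell (19.2% and 14.4%), and at 12 h against 6 h 10 rose and 19 fell (32.1% and 16.5%). At 24 h against 12 h 5 rose and 4 fell (10.3% and 8.11%), a count that lay between 4 and 14 under other settings. After median centring the split was 4 higher and 23 lower at 12 h against 6 h, and 4 higher and 7 lower at 24 h against 12 h. The F test over the course was passed by 49 of 52 members (93.2% of tested genes), all but WRKY61, WRKY13 and WRKY50. The highest mean lay at 1 h for 14 members, after 3 h for 14, after 6 h for 6, after 12 h for 2 and after 24 h for 14, and 2 members were highest at 0 h.

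**Figure D2:**
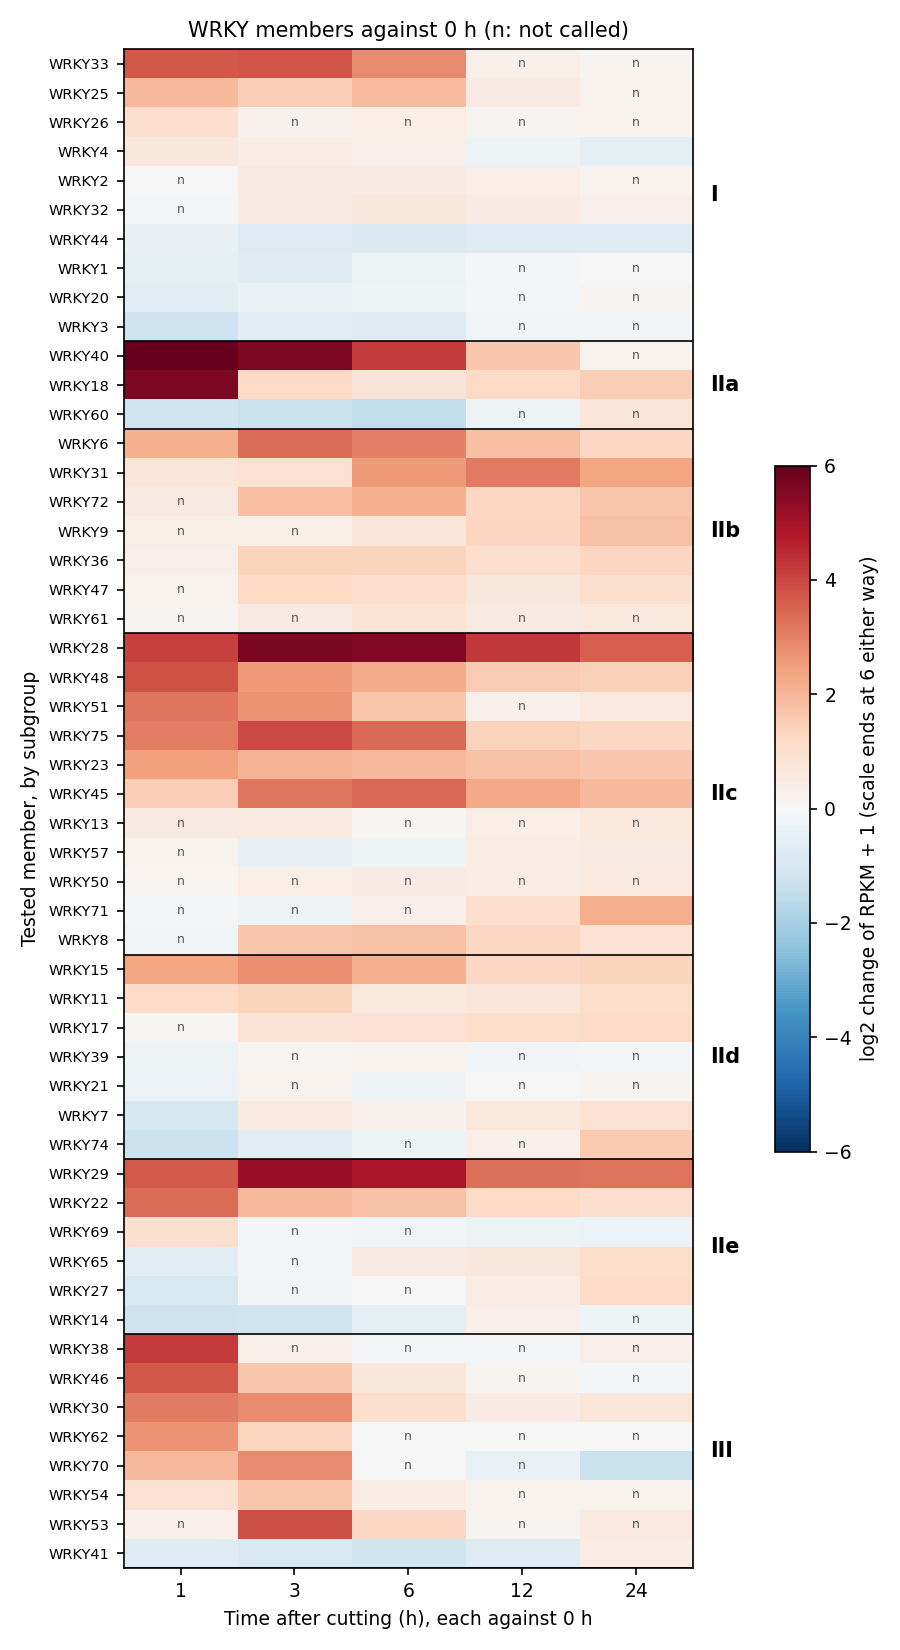
Log2 change of RPKM + 1 against 0 h for the 52 tested members (rows, by subgroup) at 1, 3, 6, 12 and 24 h (columns), red for higher and blue for lower, with n where the change was not called. WRKY40 at 1 h is 7.64 and lies past the end of the scale, IIb has no blue cell that was called, and WRKY60 is blue beneath its red sisters from 1 h to 6 h.

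Subgroup IIa held the largest rise of the family and a member that moved the other way. WRKY18, WRKY40 and WRKY60 can pair with themselves and each other through a leucine zipper, and are known as regulators of immune, jasmonate and abscisic acid responses. In TAIR10.1 they lie apart, WRKY40 at chr1:30383561-30385499 (plus strand, 4 exons), WRKY18 at chr4:15382777-15385100 (plus strand, 5 exons) and WRKY60 at chr2:10629662-10631413 (plus strand, 5 exons). WRKY40 (AT1G80840) had 3.35, 7.25 and 4.15 RPKM at 0 h, 1011, 1214 and 1185 after 1 h, 257, 288 and 270.3 after 3 h, 98.5, 109 and 104 after 6 h, 17, 22.9 and 11.8 after 12 h, and 6.76 and 4.63 after 24 h. Its 1 h, 3 h, 6 h and 12 h libraries all lay above the 0 h libraries, whereas those of 24 h lay among them. The change was 7.64 (SE 0.22, adjusted p = 5.37e-13) at 1 h and 1.63 (SE 0.22, adjusted p = 1.53e-05) at 12 h. At 24 h it was 0.22 (SE 0.25, adjusted p = 0.477) and not called. WRKY18 (AT4G31800) had 16, 18 and 17.1 RPKM at 0 h, 799, 920.3 and 943 after 1 h, 39.4, 44.1 and 35.7 after 3 h, 25.8, 24.4 and 42.5 after 6 h, 39, 42.1 and 37.7 after 12 h, and 49.7 and 49.1 after 24 h. It peaked at 1 h, and every later library still lay above the 0 h libraries. Its change was 5.62 (SE 0.15, adjusted p = 8.77e-14) at 1 h, 0.78 (SE 0.15, adjusted p = 0.00028) after 6 h and 1.49 (SE 0.17, adjusted p = 2.12e-06) after 24 h.

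WRKY60 (AT2G25000) was lower while its sisters were high. It had 51.7, 41 and 19.5 RPKM at 0 h, 19.2, 14.6 and 10.6 after 1 h, 14.8, 14.1 and 11.2 after 3 h, 13.3, 13.3 and 9.22 after 6 h, 32.7, 29.7 and 23.4 after 12 h, and 59.3 and 55.9 after 24 h. The 0 h libraries were spread widely, and all libraries of 1 h, 3 h and 6 h lay below the lowest of them. The change was -1.21 (SE 0.29, adjusted p = 0.00165) at 1 h and -1.48 (SE 0.29, adjusted p = 0.00036) at 6 h. At 12 h the change was -0.28 (SE 0.29, adjusted p = 0.413) and not called. Both 24 h libraries lay above all 0 h libraries, but the change of 0.72 was not called (adjusted p = 0.0687). It was called without 0 h replicate 1 (1.00, adjusted p = 0.0134), as was a fall at 12 h without 0 h replicate 3 (-0.68, adjusted p = 0.0144). The log2 ratio of WRKY60 to WRKY40 was 2.65 at 0 h, -6.20 after 1 h, -4.25 after 3 h, -3.03 after 6 h, 0.73 after 12 h and 3.15 after 24 h. The ratio of WRKY18 to WRKY40 crossed 0 as well, with 1.66 at 0 h, -2.75 after 3 h and 2.93 after 24 h. Coding identity was 77.6% between WRKY18 and WRKY60, 65.7% between WRKY60 and WRKY40, and 64.0% between WRKY18 and WRKY40.

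**Figure D3:**
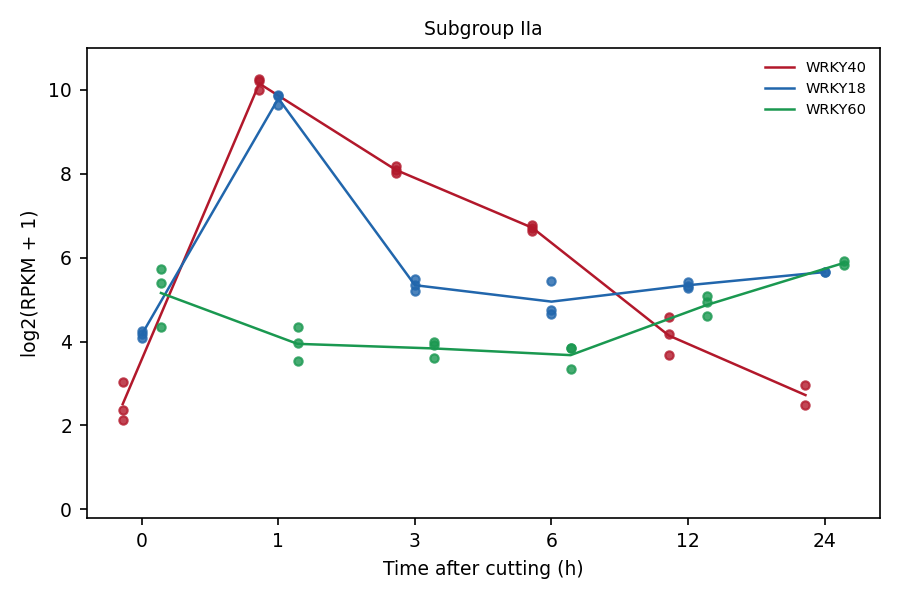
log2(RPKM + 1) of WRKY40, WRKY18 and WRKY60 by time after cutting (h, time points evenly spaced), with 1 point per library and lines through the means. WRKY40 and WRKY18 peak at 1 h, and the WRKY60 points of 1 h to 6 h lie beneath those of 0 h.

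Most rises of the listed group III members were no longer called at 12 h. Proteins of this group include regulators of salicylic acid signalling, defence and leaf senescence. Of 8 tested members, 6 were higher and 1 lower at 1 h, 6 and 1 after 3 h, 4 and 1 after 6 h, 1 and 1 after 12 h and 2 and 1 after 24 h. The shares higher were 75% at 1 h and 3 h, 50% after 6 h, 12.5% after 12 h and 25% after 24 h, the last 2 below the 34.4% and 36.2% of all tested genes. These shares describe the listed members only. The further WRKY loci named at the end of the results are counted in no subgroup, and their inclusion could change the shares. The median change was 2.32 at 1 h, 1.65 after 3 h, 0.24 after 6 h, 0.05 after 12 h and 0.26 after 24 h. WRKY38 and WRKY62, known as repressors of basal defence that bind a histone deacetylase, were near 0 before cutting. WRKY38 (AT5G22570) had 0.285, 0.125 and 0.25 RPKM at 0 h, 25.6, 15.9 and 23.1 after 1 h, 0.756, 0.501 and 0.251 after 3 h, 0, 0.126 and 0.252 after 6 h, 0.25, 0 and 0.251 after 12 h, and 0.418 and 0.587 after 24 h. It rose at 1 h (log2 change 4.18, SE 0.18, adjusted p = 1.5e-11) and at no other time was a change called. WRKY62 (AT5G01900) had 0.0988, 0.131 and 0.521 RPKM at 0 h, 7.97, 7.36 and 5.56 after 1 h, 1.57, 2.87 and 1.83 after 3 h, 0.391, 0.131 and 0.131 after 6 h, 0.521, 0.13 and 0 after 12 h, and 0.174 and 0.262 after 24 h. Its rise was 2.67 (SE 0.20, adjusted p = 1.31e-08) at 1 h. At 3 h all its libraries still lay above those of 0 h (adjusted p = 3.42e-05).

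WRKY46 and WRKY53, both linked to senescence and defence, peaked at different hours. WRKY46 (AT2G46400) had 1.89, 2.61 and 2.19 RPKM at 0 h, 58.5, 40.6 and 31 after 1 h, 7.02, 11 and 9.39 after 3 h, 2.81, 4.39 and 5.76 after 6 h, 2.29, 2.92 and 2.61 after 12 h, and 2.37 and 1.67 after 24 h. It rose by 3.74 (SE 0.23, adjusted p = 1.09e-09) at 1 h and fell at 3 h against 1 h (log2 change -2.10, SE 0.23, adjusted p = 1.14e-06). Its 6 h rise of 0.69 (adjusted p = 0.0147) was not called without 0 h replicate 1 or without 6 h replicate 3. WRKY53 (AT4G23810) had 4.46, 6.99 and 2.52 RPKM at 0 h, 7.96, 5.68 and 3.92 after 1 h, 74.4, 85.2 and 74.9 after 3 h, 12.5, 11.1 and 10.9 after 6 h, 6.21, 4.71 and 4.13 after 12 h, and 6.8 and 7.09 after 24 h. At 1 h its libraries overlapped those of 0 h (log2 change 0.31, SE 0.24, adjusted p = 0.26), and at 3 h all of them were far above (log2 change 3.88, SE 0.24, adjusted p = 1.93e-09). The step at 3 h against 1 h was 3.57 (SE 0.24, adjusted p = 9e-09). The 1 h change was called without 0 h replicate 2 (0.60, adjusted p = 0.025), after median centring and after quantile normalization, as was the 24 h change without that library (0.86, adjusted p = 0.00765). The log2 ratio of WRKY46 to WRKY53 was -0.74 at 0 h, 2.69 after 1 h, -2.98 after 3 h, -1.27 after 6 h, -0.73 after 12 h and -1.40 after 24 h.

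WRKY54 and WRKY70, which act together in salicylic acid responses and hold back leaf senescence, both peaked at 3 h. WRKY70 (AT3G56400) had 1.61, 5.85 and 2.18 RPKM at 0 h, 14.1, 18.7 and 10.3 after 1 h, 24.3, 25.2 and 30.3 after 3 h, 2.18, 6.67 and 1.5 after 6 h, 2.74, 1.6 and 1.49 after 12 h, and 0.765 and 0.307 after 24 h. It rose by 1.97 (SE 0.39, adjusted p = 0.000406) at 1 h and by 2.84 (SE 0.39, adjusted p = 1.34e-05) at 3 h, and its 6 h libraries overlapped those of 0 h. At 24 h both libraries lay below the 0 h libraries, and the fall of -1.34 (adjusted p = 0.0167) was not called without 0 h replicate 2 or without 24 h replicate 2. WRKY54 (AT2G40750) stayed much lower, with 0.0361, 0.381 and 0 RPKM at 0 h, 1.07, 1.15 and 1.16 after 1 h, 2.01, 2.95 and 2.86 after 3 h, 0.381, 0.573 and 0.671 after 6 h, 0, 0.476 and 0.572 after 12 h, and 0.382 and 0.255 after 24 h. Its change was 0.92 (SE 0.19, adjusted p = 0.000402) at 1 h and 1.67 (SE 0.19, adjusted p = 9.06e-07) at 3 h. The 6 h change of 0.45 (adjusted p = 0.0442) was not called when certain single libraries were left out, among them 0 h replicate 1 and 6 h replicate 3. WRKY30 (AT5G24110), a gene linked to oxidative stress, was still high at 3 h, with 0.224, 0.89 and 0.0987 RPKM at 0 h, 10.5, 11.9 and 9.72 after 1 h, 10, 7.8 and 8.51 after 3 h, 2.07, 1.59 and 1.69 after 6 h, 1.08, 1.19 and 0.593 after 12 h, and 1.19 and 1.32 after 24 h. All libraries from 1 h to 6 h lay above those of 0 h, with a change of 3.10 (SE 0.18, adjusted p = 6.83e-10) at 1 h and 1.02 (SE 0.18, adjusted p = 0.000139) at 6 h. The rise of 0.50 at 12 h (adjusted p = 0.0263) was not called without 12 h replicate 1, 12 h replicate 2, 0 h replicate 1 or 0 h replicate 3. At 24 h both libraries again lay above those of 0 h, and the rise of 0.72 (adjusted p = 0.00676) was called with each single library left out but not in a fit of 24 h and 0 h alone.

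WRKY41 was the exception in group III. WRKY41 (AT4G11070), a regulator of seed dormancy, had 2.63, 2.62 and 2.62 RPKM at 0 h, 1.07, 1.32 and 0.929 after 1 h, 0.79, 0.915 and 0.917 after 3 h, 0.654, 0.394 and 0.658 after 6 h, 1.31, 1.18 and 0.917 after 12 h, and 2.88 and 5.08 after 24 h. All libraries of 1 h to 12 h lay below the 0 h libraries, and the change was -0.79 (SE 0.16, adjusted p = 0.000309) at 1 h, -1.21 (SE 0.16, adjusted p = 4.31e-06) after 6 h and -0.77 (SE 0.16, adjusted p = 0.000484) after 12 h. The 24 h change of 0.43 (adjusted p = 0.0461) was 0.75 without 24 h replicate 1 and 0.10 without 24 h replicate 2, so 1 library decides it. The WRKY41 values are uncertain because its gene model shares 517 bases with a gene on the opposite strand, AT4G11080, and whether reads were counted by strand is not given. AT4G11080 took a similar course, with 7.34 to 10.4 RPKM at 0 h, 2.43 to 3.35 after 3 h and 13.6 to 14.8 after 24 h. WRKY53 shares 341 bases with the opposite-strand gene AT4G23800, which had 6.43 to 7.28 RPKM at 3 h against 34.7 to 38.3 at 0 h, when WRKY53 moved the other way. In all, 11 members overlap another annotated gene, each time on the opposite strand.

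**Figure D4:**
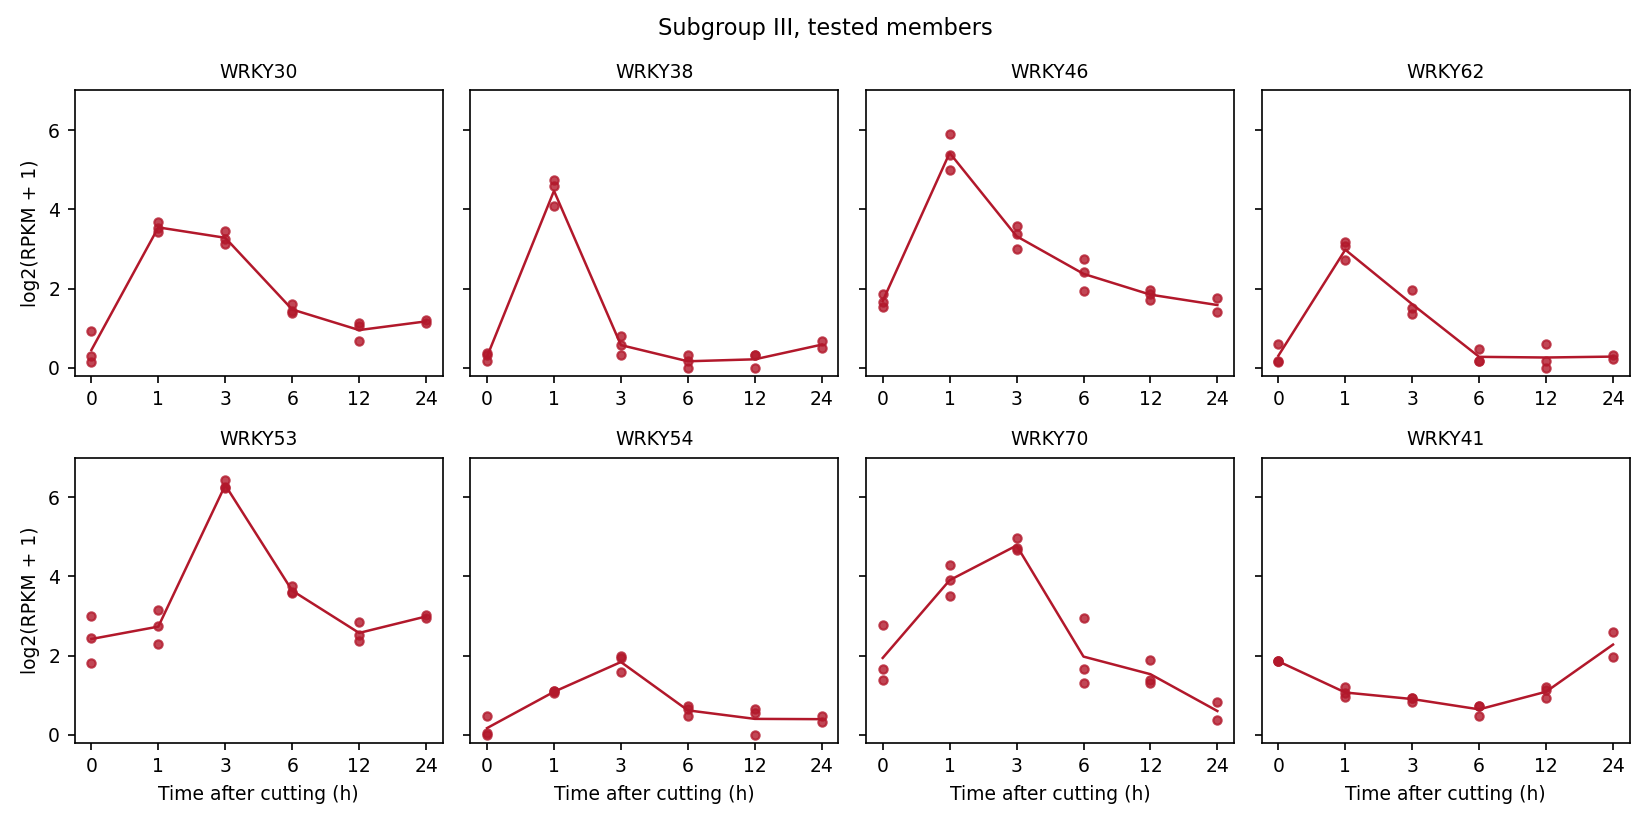
log2(RPKM + 1) of the 8 tested members of group III by time after cutting (h, time points evenly spaced), with 1 point per library and lines through the means. WRKY38, WRKY46, WRKY62 and WRKY30 peak at 1 h, WRKY53, WRKY54 and WRKY70 at 3 h, and WRKY41 dips.

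Subgroup IId had more members lower than higher at 1 h and more higher than lower at each time from 3 h on, with the 1 h split turned to 3 higher and 2 lower by median centring. Its proteins bind calmodulin, and WRKY7, WRKY11 and WRKY17 are known to restrain defence against Pseudomonas syringae. Of 7 tested members, 2 were higher and 4 lower at 1 h, 4 and 1 after 3 h, 5 and 1 after 6 h, 4 and 0 after 12 h, and 5 and 0 after 24 h. The share lower at 1 h, 57.1%, was near the 54.7% of all tested genes, and the share higher at 24 h was 71.4%, against 36.2%. WRKY15 (AT2G23320), a gene linked to growth and osmotic stress, had the largest rise, with 19.5, 19 and 21.4 RPKM at 0 h, 93.4, 124 and 101 after 1 h, 146, 132 and 153 after 3 h, 86, 96 and 88.2 after 6 h, 45.1, 55.1 and 46.3 after 12 h, and 55.1 and 47.5 after 24 h. All its later libraries lay above the 0 h libraries, and its change was 2.35 (SE 0.11, adjusted p = 2.38e-11) at 1 h, 2.78 (SE 0.11, adjusted p = 3.49e-12) after 3 h and 1.32 (SE 0.12, adjusted p = 1.49e-07) after 24 h. WRKY11 (AT4G31550) had 39.7, 38.8 and 30.8 RPKM at 0 h, 79.5, 84.4 and 83 after 1 h, 94.3, 104 and 83.2 after 3 h, 54, 60.7 and 57.3 after 6 h, 59.8, 66.3 and 54.8 after 12 h, and 80 and 70.8 after 24 h. It was above the 0 h libraries in every later library, by 1.16 (SE 0.10, adjusted p = 8.17e-08) at 1 h and 1.04 (SE 0.12, adjusted p = 1.56e-06) at 24 h. Its sister WRKY17 (AT2G24570) rose later, with 17, 17.2 and 17 RPKM at 0 h, 16.2, 21.3 and 16 after 1 h, 30.4, 33.1 and 30.5 after 3 h, 33.8, 34.8 and 27 after 6 h, 35.6, 38.8 and 37 after 12 h, and 40.1 and 37.8 after 24 h. The change of WRKY17 was 0.05 (SE 0.10, adjusted p = 0.677) at 1 h, when the libraries overlapped, and 0.84 (SE 0.10, adjusted p = 2.79e-06) at 3 h. The log2 ratio of WRKY11 to WRKY17 was 1.04 at 0 h, 2.16 after 1 h and 0.68 after 12 h.

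WRKY7 and WRKY74 fell before they rose. WRKY7 (AT4G24240) had 21.9, 20.8 and 21.8 RPKM at 0 h, 9.21, 10.2 and 10.6 after 1 h, 33, 34 and 31.8 after 3 h, 28.8, 26.8 and 23.2 after 6 h, 35.1, 36 and 29.7 after 12 h, and 41.5 and 40.5 after 24 h. Its change was -1.04 (SE 0.09, adjusted p = 3.57e-08) at 1 h, 0.59 (SE 0.09, adjusted p = 1.58e-05) after 3 h and 0.90 (SE 0.10, adjusted p = 9.76e-07) after 24 h. WRKY74 (AT5G28650) had 3.27, 2.79 and 2.49 RPKM at 0 h, 0.391, 0.774 and 0.584 after 1 h, 1.45, 1.92 and 1.15 after 3 h, 1.54, 2.5 and 2.9 after 6 h, 3.64, 4.42 and 3.36 after 12 h, and 9.43 and 11.2 after 24 h. All its 1 h and 3 h libraries lay below those of 0 h and all its 12 h and 24 h libraries above them. The change was -1.29 (SE 0.17, adjusted p = 7.06e-06) at 1 h and 1.55 (SE 0.19, adjusted p = 4.55e-06) at 24 h. WRKY39 and WRKY21 moved little. WRKY39 (AT3G04670), which is linked to heat tolerance, had 47, 53.4 and 52.4 RPKM at 0 h, 37.7, 48.3 and 38 after 1 h, 53.9, 54.8 and 57.6 after 3 h, 61.1, 59.2 and 59.4 after 6 h, 39.5, 49.7 and 46.6 after 12 h, and 48.5 and 49.1 after 24 h. WRKY21 (AT2G30590) had 16.3, 18 and 19.3 RPKM at 0 h, 15.1, 14.6 and 11.8 after 1 h, 20.7, 20.2 and 22.5 after 3 h, 13.6, 17.3 and 13.5 after 6 h, 15.6, 18.2 and 18.9 after 12 h, and 20.1 and 20.6 after 24 h. Their 1 h falls of -0.30 (adjusted p = 0.00938) for WRKY39 and -0.35 (adjusted p = 0.00936) for WRKY21 were not called after median centring, at -0.04 and -0.09. Their 6 h changes of 0.23 (adjusted p = 0.0422) and -0.26 (adjusted p = 0.0474) were each lost when certain single libraries were left out.

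Subgroup IIb held no member that was called lower at any time, and all of its tested members were higher at 6 h. Of 7 tested members, 3 were higher at 1 h, 5 after 3 h, 7 after 6 h, 6 after 12 h and 6 after 24 h. After quantile normalization 6 were higher at 6 h, as WRKY9 was not called (log2 change 0.74, adjusted p = 0.0535). As shares these were 42.9% at 1 h and 71.4% at 3 h, against 18.2% and 27.6% of all tested genes. The highest mean lay at 3 h for 3 members, after 6 h for 2, after 12 h for 1 and after 24 h for 1. WRKY6 (AT1G62300), known from senescence and as a repressor of the phosphate transporter gene PHO1, had 12.5, 17.2 and 8.44 RPKM at 0 h, 50.4, 56.8 and 62 after 1 h, 130.0, 129 and 139 after 3 h, 104, 112 and 104 after 6 h, 45.5, 41.6 and 47.9 after 12 h, and 31.7 and 28.6 after 24 h. Every later library lay above the 0 h libraries, with a change of 2.11 (SE 0.16, adjusted p = 1.7e-08) at 1 h, 3.34 (SE 0.16, adjusted p = 7.36e-11) after 3 h and 1.23 (SE 0.18, adjusted p = 2.84e-05) after 24 h. WRKY31 (AT4G22070) was almost silent at 0 h and peaked after 12 h, with 0.19, 0.0717 and 0.0716 RPKM at 0 h, 0.656, 1.73 and 0.363 after 1 h, 0.792, 1.72 and 0.932 after 3 h, 7.16, 6.18 and 3.82 after 6 h, 8.93, 8.52 and 8.82 after 12 h, and 5.45 and 4.03 after 24 h. Its change was 3.14 (SE 0.24, adjusted p = 2.02e-08) at 12 h and 2.36 (SE 0.27, adjusted p = 2.08e-06) at 24 h. The 1 h change of 0.73 (adjusted p = 0.0133) was 0.44 without 1 h replicate 2 and then not called. WRKY72 (AT5G15130), a gene known from basal defence, had 0.149, 0.328 and 0.131 RPKM at 0 h, 0.401, 2.64 and 0.0665 after 1 h, 2.9, 3.74 and 2.82 after 3 h, 4.59, 5.72 and 2.84 after 6 h, 2.68, 1.84 and 1.25 after 12 h, and 3.2 and 2.37 after 24 h. At 1 h its libraries were scattered and overlapped those of 0 h, and at 6 h all lay above (log2 change 2.13, SE 0.35, adjusted p = 5.6e-05). WRKY36 and WRKY47 were higher by 0.70 to 1.35 at each time from 3 h on. WRKY9 was highest at 24 h (log2 change 1.74, SE 0.33, adjusted p = 0.000343), and WRKY61 passed the test only at 6 h (log2 change 0.82, SE 0.27, adjusted p = 0.0137).

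In subgroup IIc more members were higher than lower at every time, but their courses differed. Of 11 tested members, 6 were higher and 0 lower at 1 h, 8 and 1 after 3 h, 7 and 1 after 6 h, 8 and 0 after 12 h, and 9 and 0 after 24 h. The share higher was 54.5% at 1 h and 81.8% at 24 h, against 18.2% and 36.2% of all tested genes. WRKY28 (AT4G18170), an activator of the salicylic acid synthesis gene ICS1, had 0.272, 0.616 and 0.41 RPKM at 0 h, 20.9, 27.2 and 22 after 1 h, 69, 69.9 and 75.6 after 3 h, 61.8, 72.1 and 62.4 after 6 h, 22.7, 29.2 and 26.2 after 12 h, and 16.6 and 15.4 after 24 h. It was more than 4-fold higher at each time, with a peak of 5.67 (SE 0.12, adjusted p = 7.15e-15) at 3 h and 3.58 (SE 0.13, adjusted p = 5.57e-11) still at 24 h. WRKY48 (AT5G49520), a repressor of basal defence, had 14.5, 15.8 and 12.8 RPKM at 0 h, 206, 201 and 237 after 1 h, 84.9, 93.9 and 91.2 after 3 h, 63.5, 66.5 and 81.3 after 6 h, 43.1, 40.1 and 47.4 after 12 h, and 40 and 40.6 after 24 h. It peaked at 1 h (log2 change 3.81, SE 0.10, adjusted p = 5.69e-14) and was 1.43 higher at 24 h. WRKY51 (AT5G64810), which takes part in jasmonate signalling, had 0.96, 1.63 and 1.09 RPKM at 0 h, 21.2, 19.9 and 17.4 after 1 h, 9.47, 15.2 and 16 after 3 h, 5.79, 5.99 and 6.38 after 6 h, 1.99, 1.45 and 1.81 after 12 h, and 2.66 and 2.06 after 24 h. It rose by 3.21 (SE 0.17, adjusted p = 1.47e-10) at 1 h, and at 12 h the change was 0.31 (SE 0.17, adjusted p = 0.119). Its 24 h change of 0.60 (adjusted p = 0.0121) was not called without 24 h replicate 1.

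WRKY75 and WRKY45, both linked to phosphate supply, rose over the first hours. WRKY75 (AT5G13080) had 5.6, 5.72 and 6.89 RPKM at 0 h, 49.8, 69.8 and 59.4 after 1 h, 94.2, 109 and 123 after 3 h, 69.9, 79.8 and 72.1 after 6 h, 18.6, 15.6 and 17.2 after 12 h, and 15.5 and 16 after 24 h. Its change peaked at 3 h (log2 change 3.95, SE 0.12, adjusted p = 3.32e-13). WRKY45 (AT3G01970) had 9.97, 14.2 and 12.4 RPKM at 0 h, 32, 40.4 and 32.8 after 1 h, 119, 100.2 and 133 after 3 h, 144, 141 and 133 after 6 h, 58.1, 70.3 and 65.3 after 12 h, and 48.8 and 48.4 after 24 h. Its change was 1.46 (SE 0.12, adjusted p = 5.23e-08) at 1 h and 3.42 (SE 0.12, adjusted p = 2.87e-12) at 6 h, and all its later libraries lay above those of 0 h. WRKY23 (AT2G47260), an auxin-responsive gene known from roots, had 5.55, 6.72 and 6.78 RPKM at 0 h, 41.7, 37.9 and 40.4 after 1 h, 27.8, 28.7 and 32.2 after 3 h, 25.4, 25.3 and 31.3 after 6 h, 19.4, 25.4 and 27.6 after 12 h, and 21.4 and 22 after 24 h. It stayed between 1.63 and 2.48 higher at every time. WRKY71 (AT1G29860), a regulator of shoot branching, rose at the end, with 0.393, 1.04 and 0.13 RPKM at 0 h, 0.792, 0.261 and 0.131 after 1 h, 0.261, 0.518 and 0.13 after 3 h, 0.648, 1.56 and 0.391 after 6 h, 1.94, 2.33 and 1.56 after 12 h, and 5.8 and 5.73 after 24 h. Its change was 0.99 (SE 0.25, adjusted p = 0.0029) at 12 h and 2.20 (SE 0.28, adjusted p = 6.61e-06) at 24 h, and at 1, 3 and 6 h its libraries overlapped those of 0 h. WRKY8 was not called at 1 h and was higher by 0.86 to 1.75 from 3 h on. WRKY57, a gene linked to drought tolerance, was lower at 3 h (log2 change -0.51, SE 0.10, adjusted p = 0.000326) and higher at 24 h (log2 change 0.52, SE 0.11, adjusted p = 0.000966). WRKY13 and WRKY50 stayed under 3 RPKM.

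Subgroup IIe held the steeply rising WRKY22 and WRKY29 and also 3 members that were lower at 1 h. Of 6 tested members, 3 were higher and 3 lower at 1 h, 2 and 1 after 3 h, 3 and 1 after 6 h, 5 and 1 after 12 h, and 4 and 1 after 24 h. The share lower at 1 h was 50%, against 54.7% of all tested genes. Without 12 h replicate 1 the 12 h counts were 3 higher and 0 lower. WRKY22 and WRKY29 are known as genes induced downstream of the kinase cascade that answers bacterial flagellin. WRKY29 (AT4G23550) had 1.08, 0.955 and 0.681 RPKM at 0 h, 26.1, 20.6 and 23.6 after 1 h, 64.4, 78.2 and 65.8 after 3 h, 50, 59.2 and 56.2 after 6 h, 21.6, 17.2 and 15.7 after 12 h, and 20 and 14.6 after 24 h. It peaked at 3 h (log2 change 5.21, SE 0.14, adjusted p = 1.05e-13) and was 3.25 higher at 24 h. WRKY22 (AT4G01250) had 2.21, 3.14 and 1.25 RPKM at 0 h, 27.3, 29.3 and 35.5 after 1 h, 10.8, 11.8 and 10.1 after 3 h, 8.25, 10.6 and 10.3 after 6 h, 5.73, 6.79 and 5.65 after 12 h, and 5.58 and 4.75 after 24 h. It peaked at 1 h (log2 change 3.34, SE 0.17, adjusted p = 1.41e-10) and was 0.99 higher at 24 h. All later libraries of both genes lay above their 0 h libraries. The log2 ratio of WRKY22 to WRKY29 was 0.71 at 0 h, 0.37 after 1 h, -2.56 after 3 h and -1.56 after 24 h. WRKY14, WRKY27 and WRKY65 were lower at 1 h, with changes of -1.24 for WRKY14, -0.96 for WRKY27 and -0.69 for WRKY65. At 24 h WRKY27 was higher (log2 change 1.16, SE 0.21, adjusted p = 0.000203), and so was WRKY65 (log2 change 1.06, SE 0.15, adjusted p = 2.17e-05). WRKY69 went the other way, higher at 1 h (log2 change 0.94, SE 0.12, adjusted p = 3.48e-06) and lower at 24 h (log2 change -0.34, SE 0.13, adjusted p = 0.0348). It shares 373 bases with the opposite-strand gene AT3G58720, which had 9.86 to 12.4 RPKM at 0 h and 4.94 to 6.95 at 24 h. The 24 h fall of WRKY69 is therefore uncertain, as for WRKY41.

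Group I held both higher and lower members at every time, though at 24 h this depended on the scaling. All 10 were tested. At 1 h 4 were higher and 4 lower, at 3 h and after 6 h 5 and 4, after 12 h 3 and 2, and after 24 h 1 and 2. After median centring, and also after quantile normalization, the 24 h counts were 0 higher and 3 lower. The 24 h rise of WRKY32 (log2 change 0.29) was then not called. The share lower was 40% at 1 h and 20% after 24 h, under the 54.7% and 23.2% of all tested genes, and the share higher was 40% after 1 h and 10% after 24 h, against 18.2% and 36.2%. WRKY33 (AT2G38470), a substrate of the kinases MPK3 and MPK6 that is needed for camalexin synthesis, had 18, 35.7 and 21 RPKM at 0 h, 281, 377 and 322 after 1 h, 291, 369.9 and 344 after 3 h, 160.4, 184 and 193 after 6 h, 29.9, 30 and 29.4 after 12 h, and 28.8 and 24.9 after 24 h. The rise was 3.71 (SE 0.18, adjusted p = 1.43e-10) at 1 h, 3.75 (SE 0.18, adjusted p = 1.18e-10) after 3 h and 2.85 (SE 0.18, adjusted p = 2.59e-09) after 6 h. Its 12 h and 24 h libraries lay among the 0 h libraries, and the changes of 0.31 and 0.16 were not called. Without 0 h replicate 2, its highest 0 h library, they were 0.59 (adjusted p = 0.00111) and 0.44 (adjusted p = 0.0146). WRKY25, which acts with WRKY33 in heat tolerance, was higher by 1.94 (SE 0.11, adjusted p = 3.32e-10) at 1 h and 1.89 (SE 0.11, adjusted p = 4.24e-10) at 6 h. WRKY3, known with WRKY4 from resistance to necrotrophic fungi, was lower at 1 h (log2 change -1.24, SE 0.08, adjusted p = 8.34e-10). WRKY4 was higher at 1 h (log2 change 0.67, SE 0.08, adjusted p = 1.91e-06) and lower at 24 h (log2 change -0.54, SE 0.09, adjusted p = 7.69e-05). WRKY44, the trichome and seed coat regulator TTG2, had at most 1.26 RPKM and was lower at every time, with a change of -0.47 at 1 h and -0.88 at 6 h. The 1 h fall of WRKY44 was not called after median centring. WRKY1, WRKY20, WRKY2, WRKY32 and WRKY26 stayed within 1.01 of 0 h in either direction at every time.

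Close relatives took different courses. The log2 ratio of both genes in RPKM + 1 was followed over the 6 time points. It covered 18 pairs of close relatives with both genes tested, out of 20 listed. A permutation test of the F statistic (100000 resamples, adjusted over the 18 pairs) was passed by all 18, with adjusted p from 2e-05 to 0.00211. The smallest p that the resamples can give is 1e-05. Pairs of unrelated genes were not tested, so passing does not set close relatives apart from other pairs. Most tested genes changed over the course, with 93.2% passing the F test above. In 13 pairs the mean ratio changed sign between time points. In 11 of them it lay above 0 in every library of some time point and below 0 in every library of another. For the other 2, WRKY3 with WRKY4 and WRKY50 with WRKY51, the libraries on one side of 0 spanned it. WRKY3 and WRKY4, the closest pair with 82.0% coding identity, had a ratio of -0.32 at 0 h, -2.23 after 1 h and 0.07 after 24 h (adjusted p = 2e-05, permutation test). WRKY7 and WRKY15 had a mean ratio of 0.11 at 0 h (0.03 to 0.16 over its libraries), -3.28 after 1 h and -0.31 after 24 h. The log2 ratio of WRKY8 to WRKY28 in RPKM + 1 was 1.66 at 0 h, when their means were 3.57 and 0.432 RPKM. It was -2.58 after 1 h and -1.06 after 24 h. The ratio of WRKY65 to WRKY69 was 0.53 at 0 h, -1.10 after 1 h, 0.55 after 3 h, 1.26 after 6 h and 1.94 after 24 h. The highest adjusted p was that of WRKY54 with WRKY70 and of WRKY71 with WRKY57, and the smallest range of mean ratios was the 1.47 of WRKY11 with WRKY17. Several pairs share a gene, and reads that fit both relatives could have been split in a way that is not given.

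**Figure D5:**
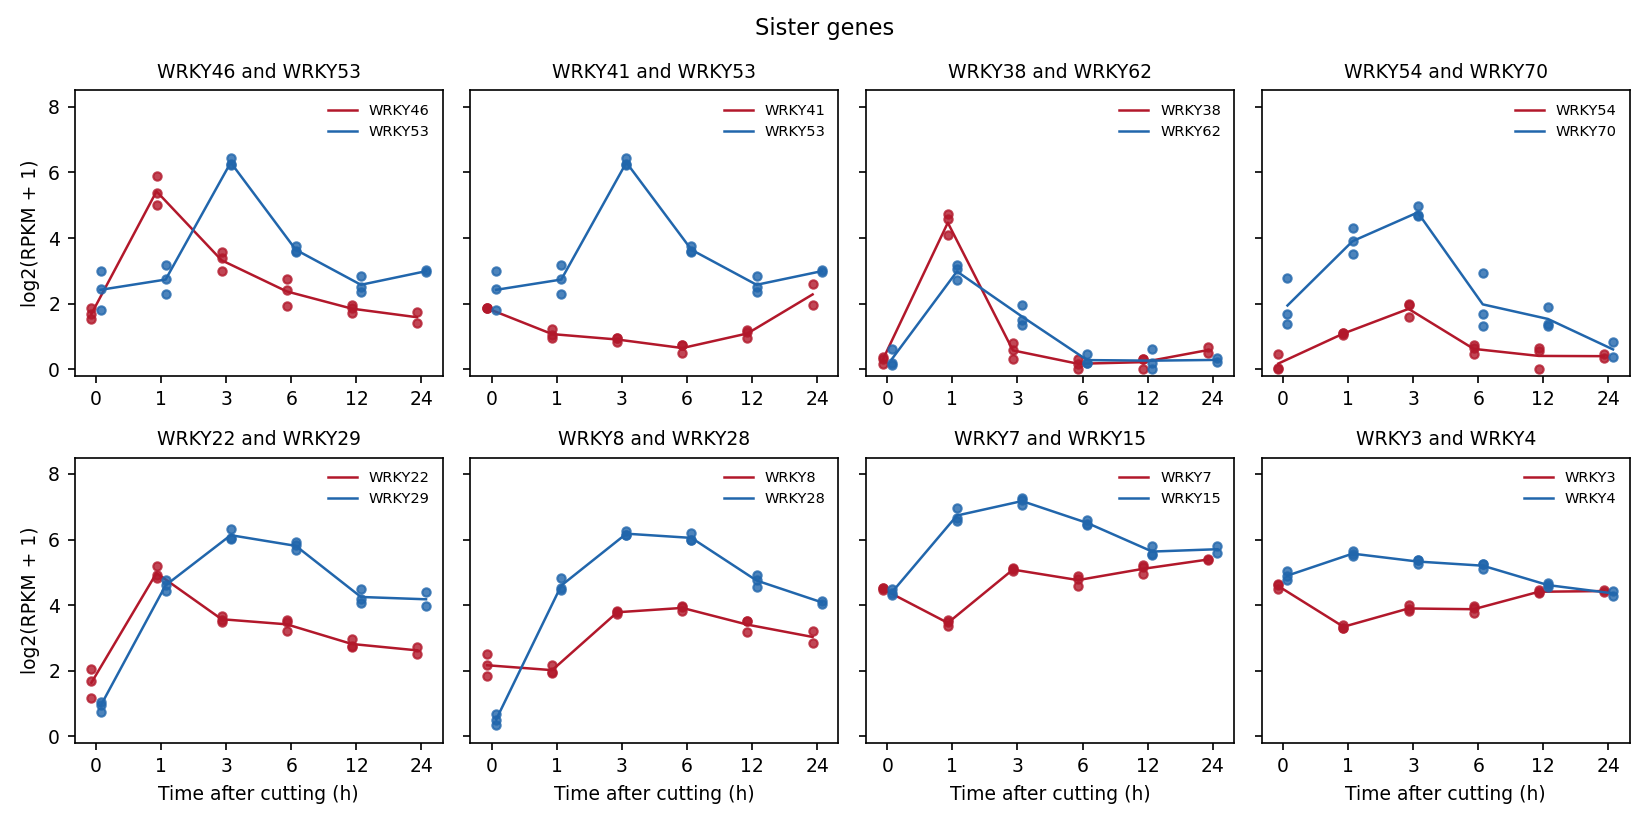
log2(RPKM + 1) of both genes in 8 pairs of close relatives by time after cutting (h, time points evenly spaced), with 1 point per library and lines through the means. In the panels of WRKY46 and WRKY53, WRKY22 and WRKY29, and WRKY8 and WRKY28 the lines cross.

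The most alike courses joined members of different subgroups. Pearson's r of log2(RPKM + 1) over the 17 libraries, which share time points and replicates, was 0.986 between WRKY28 of IIc and WRKY29 of IIe. It was 0.983 between WRKY48 of IIc and WRKY22 of IIe, 0.970 between WRKY75 of IIc and WRKY15 of IId, 0.967 between WRKY18 of IIa and WRKY38 of III, and 0.965 between WRKY40 of IIa and WRKY51 of IIc. WRKY60 was most like WRKY41, at 0.824. Other members were most like one of their own subgroup. Among these were WRKY46 with WRKY62 of III at 0.952, WRKY36 with WRKY47 of IIb at 0.933, and WRKY54 with its relative WRKY70 at 0.844. The share of such matches that subgroup sizes alone would give was not worked out. A W-box was present for 11 of the 22 members with a 4-fold rise at some time, and for 11 of the 30 other tested members.

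Genes of the pathways around the WRKY proteins were taken from lists by function. The lists of kinases, VQ proteins and reported targets were chosen with earlier results of these data known. Their shares therefore describe the listed genes only. Of 12 members of the kinase cascades that act on WRKY proteins, 9 were higher and 1 lower at 1 h, 9 and 0 after 3 h, 4 and 1 after 6 h, 4 and 5 after 12 h, and 3 and 2 after 24 h. The share higher was 75% at 1 h and 3 h, against 18.2% and 27.6% of all tested genes, and 33.3%, 33.3% and 25% at 6, 12 and 24 h, against 30.2%, 34.4% and 36.2%. Without 12 h replicate 1 the 12 h counts were 3 higher and 5 lower. MKK9, a kinase kinase upstream of MPK3 and MPK6, had the largest rise on the log2(RPKM + 1) scale, with 84.7 ± 10 RPKM at 1 h and 16.4 ± 4.61 at 0 h (SD, n = 3 each, log2 change 2.33, SE 0.15, adjusted p = 1.8e-09). The rise of MPK11 was close to it on that scale, which holds low genes back, with 4.11 ± 0.843 RPKM at 3 h and 0.053 ± 0.0462 at 0 h (SD, n = 3 each, log2 change 2.27, SE 0.15, adjusted p = 1.74e-09). MPK3 had the largest fall, with 26.2 ± 4.91 RPKM at 12 h and 52.4 ± 3.47 at 0 h (SD, n = 3 each, log2 change -0.99, SE 0.13, adjusted p = 6.68e-06), after a mean of 252 ± 13.2 after 1 h. All 4 calcium-dependent kinases of the list were higher at 1 h and after 3 h, 2 after 6 h, 1 after 12 h and 2 after 24 h, and 2 were lower after 12 h. CPK4 rose most (log2 change 1.85, SE 0.12, adjusted p = 2.51e-09 at 3 h) and CPK11 fell most (log2 change -0.49, SE 0.14, adjusted p = 0.00619 at 12 h).

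VQ proteins bind WRKY domains and modify their activity. Of 11 tested, 9 were higher and 2 lower at 1 h, 9 and 1 after 3 h, 8 and 1 after 6 h, 4 and 1 after 12 h, and 6 and 0 after 24 h. The share higher was 81.8% at 1 h and 3 h and 72.7% after 6 h, whereas the 36.4% after 12 h was near the 34.4% of all tested genes. VQ29 had 98.5 ± 8.4 RPKM at 1 h and 0.0951 ± 0.104 at 0 h (SD, n = 3 each, log2 change 6.51, SE 0.18, adjusted p = 8.2e-14). SIB2, a partner of WRKY33 in defence, was lower, with 6.67 ± 0.863 RPKM at 3 h and 25.5 ± 4.75 at 0 h (SD, n = 3 each, log2 change -1.78, SE 0.13, adjusted p = 4.88e-09). Of 10 tested genes that are reported targets of WRKY proteins, 4 were higher and 1 lower at 1 h, 6 and 2 after 3 h, 7 and 2 after 6 h, 7 and 2 after 12 h, and 6 and 2 after 24 h. The share higher was 40% at 1 h and 60% at 24 h, against 18.2% and 36.2% of all tested genes. JAZ8, a jasmonate repressor gene that WRKY40 is known to bind, had 182 ± 20.4 RPKM at 1 h and 0.208 ± 0.0316 at 0 h (SD, n = 3 each, log2 change 7.24, SE 0.27, adjusted p = 6.26e-12). PHO1, the gene that WRKY6 is known to repress, had 8.18 ± 1.42 RPKM at 12 h and 89.9 ± 6.11 at 0 h (SD, n = 3 each, log2 change -3.32, SE 0.12, adjusted p = 7.38e-12). PAD3, the last enzyme of camalexin synthesis and a known target of WRKY33, and ICS1, which WRKY28 is known to activate, were picked after their values were seen. PAD3 had 0.465 ± 0.354 RPKM at 0 h, 12.7 ± 5.86 after 1 h, 138 ± 0.705 after 3 h, 209 ± 64.3 after 6 h and 33.7 ± 1.23 after 12 h (SD, n = 3 each), and 13.3 ± 4.84 after 24 h (SD, n = 2). Its 6 h libraries spread widely, and the step at 6 h against 3 h was not called (log2 change 0.55, SE 0.30, adjusted p = 0.184). CYP71A13, also on the list of reported targets and likewise picked afterwards, took another course. It had 0.0789 ± 0.0786 RPKM at 1 h, 0.104 ± 0.0901 after 3 h and 6.1 ± 2.86 after 6 h (SD, n = 3 each). Its changes at 1 h and 3 h were not called (log2 change 0.09 and 0.13). ICS1 was lower at 3 h, with 1.23 ± 0.0354 RPKM and 2.21 ± 0.455 at 0 h (SD, n = 3 each, log2 change -0.52, SE 0.15, adjusted p = 0.00493). ICS1 was also lower after 6 h (log2 change -0.60, SE 0.15, adjusted p = 0.00175). It was higher at 12 h (log2 change 0.45, SE 0.15, adjusted p = 0.0134) and 24 h (log2 change 0.63, SE 0.16, adjusted p = 0.00343). Whether WRKY proteins acted on any of these genes here was not tested.

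The annotation names 14 further WRKY loci that were not on the member list, 7 of them tested. At 1 h 4 were higher and 1 lower, at 3 h 3 and 1, after 6 h 2 and 2, after 12 h 3 and 1, and after 24 h 4 and 0. The share higher was 57.1% at 1 h, against 18.2% of all tested genes, and 28.6% at 6 h, near the 30.2% of all tested genes. Without 12 h replicate 1 the 12 h counts were 3 higher and 0 lower. WRKY63 had 27.3 ± 1.04 RPKM at 1 h and 1.71 ± 0.779 at 0 h (SD, n = 3 each, log2 change 3.42, SE 0.18, adjusted p = 1.87e-10). WRKY66 and WRKY67 were listed at 0 in all 0 h libraries, and at 1 h WRKY66 had 3.29, 3.8 and 3.65 RPKM and WRKY67 had 7.01, 8 and 7.75. WRKY66 rose further, to 16.5, 16 and 21.4 RPKM at 3 h. WRKY63, WRKY66 and WRKY49 were called higher at 12 h (log2 change 1.34, 0.99 and 1.22) and at 24 h (0.76, 0.93 and 1.83). None of these loci was counted in a subgroup above.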

How the data were processed

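Gene-level values of 17 libraries were deposited by the authors as a single table of 28642 genes. No unit stands in the header. They were taken as RPKM, since the deposited values of a gene in a library come in steps that 1 read explains. The build is TAIR 10, per the submitters' processing notes, and for the aligner, counter, strand setting and treatment of shared reads nothing was given in the sources used. Division by the steps gave whole reads (tolerance 0.01) for the 24834 genes above 0, with the annotated gene length for 3496 and with a length searched up to 20000 bases for the other 21338, which yields library totals of 7717255 to 20740957 reads.

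Samples were grouped by labelled time. Values were transformed as log2(RPKM + 1), and genes with at least 1 RPKM in at least 2 libraries were fitted with limma 3.58.1 (R 4.3.3), with time as a factor, an intensity trend and robust moderation, without a replicate block. P-values were adjusted by Benjamini-Hochberg over 19656 genes and called at 0.05. The plan held a branch for counts, which the unit did not call for. Pairs of relatives were compared by permutation tests. Scripts were tested on simulated data. Per-library values are given for tested members of IIa, IId and III and for members with a 4-fold change in RPKM + 1 at any time. Partner genes are named when they had the largest rise or fall of their list. The members and lists were chosen with earlier results of these data known. Sequences come from the RefSeq genome TAIR10.1 and were placed by its annotation, with symbols from the same source (Python 3.11.15, Biopython 1.88). Alternatives were another pseudocount, other filters, scalings, a replicate block, pairwise fits, each library left out and voom on the recovered reads, the last chosen after seeing the data.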

Additional observations from a re-analysis of the deposited data

How the results depend on the processing

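Of 3870 values of the named members recomputed under other settings, 3774 kept their side of the threshold, 76 lost a call and 20 gained one. Among values called in either fit, 0 changed sign. Sign changes of values called in neither fit were not counted. Counts of called members ranged over the settings from 37 to 43 at 1 h, 40 to 43 at 3 h, 35 to 43 at 6 h, 31 to 34 at 12 h and 28 to 36 at 24 h. The 9 calls at 24 h against 12 h moved most, to 5 with a pseudocount of 0.1, 14 after quantile normalization and 14 with voom on recovered reads, and to between 4 and 5 without 24 h replicate 1 or 2. The cause was not tested. Of the 18 pairs of relatives, 17 or 18 passed in each setting run.

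The replicate numbers were not taken as a pairing, since the labels tie them to nothing and not every same-numbered pair of libraries deviated together. The correlation of deviations was over 0.1 in 16 of 40 same-numbered pairs (-0.173 to 0.343, median 0.074) and in 12 of 80 others (median -0.046). For replicate 3 it was over 0.1 in 9 of 10 pairs, and 13 of 17 libraries correlated best with their own number, a hint from the data and not from the design. With a replicate block, 39, 40, 42, 32 and 31 members were called at 1, 3, 6, 12 and 24 h, 37, 20, 29 and 10 in the 4 steps between neighbouring times, and 50 over the course. At 24 h 2 libraries limit the precision, and a lone library left there was assumed to vary like the others. Members under 1 RPKM rest on few reads.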
